A study of Mus musculus with 4 samples.

Results

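The 81 genes described here encode, with few exceptions, enzymes that attach ubiquitin and ubiquitin-like proteins to other proteins, or take ubiquitin off again. They were taken by their symbols from a table of 11598 genes: every symbol that begins with Ube2, every symbol that begins with Usp and a digit, and Uba followed by a single digit up to 7. This gave 5 genes of activating enzymes (E1), 30 genes of conjugating enzymes (E2) and 44 *Usp* genes, most of which encode ubiquitin-specific proteases. The other 2, *Ube2cbp* and *Usp6nl*, match the symbol rule but are counted in none of these classes. *Usp6nl* encodes a GTPase-activating protein.

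Ribo-seq sequences the pieces of mRNA that ribosomes shield from RNase I, here fragments of 26 to 34 nt from cells lysed with cycloheximide. The 4 libraries came from spermatocytes in leptotene and zygotene, the early stages of meiotic prophase, which were sorted from mouse testes at 12 dpp (days post partum). The study asks what the loss of eEF1G, a subunit of translation elongation factor 1, does to meiosis and to translation in these cells. Sorting used Hoechst dye and FACS, and the study checked the sorted cells by immunostaining, in which they were not pure, to a similar degree in both genotypes.

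The Control group is labelled wild type and consists of littermate controls. In the Eef1g-cKO group, *Stra8*-GFPCre, a Cre driven from the promoter of a gene switched on as male germ cells approach meiosis, deletes exons of a floxed *Eef1g* allele, so deletion is limited to germ cells and its extent depends on when and in how many cells the Cre acts. The floxed mice were made on a C57BL/6J background. Each group had 2 libraries, which the series calls independent biological replicates. Depth, as reads counted on genes, was 2479504 in Control replicate 1, 1384282 in Control replicate 2, 223906 in Eef1g-cKO replicate 1 and 407979 in Eef1g-cKO replicate 2. The median gene had 60 and 34 reads in Control against 5 and 8 in Eef1g-cKO, so counting error is larger in the Eef1g-cKO libraries. The targeted gene *Eef1g* had 107 and 58 reads in Control against 0 and 4 in Eef1g-cKO, or 27.6 and 26.8 FPKM (reads per kilobase of the gene for each 1000000 counted) against 0 and 6.26. Both Eef1g-cKO libraries were far lower. Its log2 fold change, Eef1g-cKO against Control, was -3.39 (SE 0.91) and did not pass in limma, a linear model fitted across all genes (adjusted p = 0.0731), but passed in edgeR on the read counts (adjusted p = 0.00780). Leaving out Eef1g-cKO replicate 1 gave -1.96. Leaving out Eef1g-cKO replicate 2 gave -4.82, a value that rests on the 1 FPKM added before logs, since replicate 1 had 0 reads. The adjusted p ran from 1.04e-04 to 0.461 over all alternatives tried.

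As background, ubiquitin is first activated by an E1 enzyme, passed to the active-site cysteine of an E2 enzyme, and then joined to a target protein, in most cases with the help of a ligase (E3). Deubiquitinases cleave it off, and ubiquitin-like modifiers such as SUMO and NEDD8 are attached by parallel cascades. In male meiosis, ubiquitin and SUMO mark unsynapsed chromatin and chromosome axes, and ubiquitin on histones H2A and H2B takes part in DNA repair and in silencing of the X and Y chromosomes.

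Taken as a whole, the members held a similar share of footprints in both groups, while single genes within each class were higher or lower. All members together took 8622 and 9482 reads per 1000000 in Control against 8968 and 9170 in Eef1g-cKO. The Eef1g-cKO values lie between the Control values. *Ube2o* and *Usp22* fell in Eef1g-cKO and passed the test. *Uba1*, the main E1 of ubiquitin, was lower, and *Ube2t*, *Usp3*, *Usp15*, *Usp29* and *Usp32* were higher, in edgeR and DESeq2 on read counts but not in the test on FPKM; *Usp30* passed in edgeR but not in DESeq2 or in edgeR without its filter. *Usp29* had 1 read in Control and reached the minimum mean through Eef1g-cKO alone. *Usp3* and *Usp29* were chosen after their values were seen.

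Genes were tested with limma on log2(FPKM + 1), and a call needed a log2 fold change beyond 1 in either direction together with an adjusted p under 0.05. Of the 81 members, 79 had a mean of at least 1 FPKM and were tested; *Usp13* and *Ube2n* were not. In limma 0 members were increased, where 2.87% of all 10475 genes tested were, and 2 were decreased, where 4.97% of all genes were. At an unadjusted p under 0.05 with the same fold limit, limma gave 9 members increased (7.32% of all genes) and 7 decreased (16.3% of all genes). The read counts behind the FPKM, tested with edgeR, gave 6 of 67 members increased (8.75% of all genes) and 3 decreased (11.2%). DESeq2 on the same reads gave 5 of 57 increased (7.86% of all genes) and 3 decreased (7.14%). For 23 of the 79 members both Eef1g-cKO values exceeded both Control values (24.6% of all genes), and for 24 both were lower (37.7%). As shares of the members tested, the increased genes came to 11.4% at unadjusted p, 8.96% in edgeR and 8.77% in DESeq2. The decreased genes came to 8.86%, 4.48% and 5.26%. Differences from the shares of all genes were not tested. The minimum of 1 FPKM is on the mean of all 4 libraries, so a gene can enter through 1 group: of the 9 increased at unadjusted p, *Usp25* and *Usp29* had a Control mean under 1 FPKM, and of the 7 decreased, *Ube2d1*, *Ube2d2a* and *Ube2u* had such a mean in Eef1g-cKO. With an untrended prior variance, or with libraries thinned to the smallest, limma called 0 of all genes, so each limma call given here ended under both. With 2 libraries against 2, an exact two-sided permutation test on a single value cannot give a p below 0.333.

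The log2 fold changes of the 79 members had a median of 0.00, and 40 were positive and 39 negative. All genes tested had a median of -0.23, so the members' median was 0.23 above it. With a GC trend removed, an alternative chosen after seeing the data, it was 0.01 above. Centring each library on its median moved the all-gene median by 0.21, to -0.02, and the members' median to 0.21. Changes are therefore also given relative to the all-gene median. With genes of 3 or fewer reads in a group set to the bound that 3 reads per library allows, 12 of the members among them, the medians were 0.00 for the members and 0.00 for all genes.

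**Figure D1:**
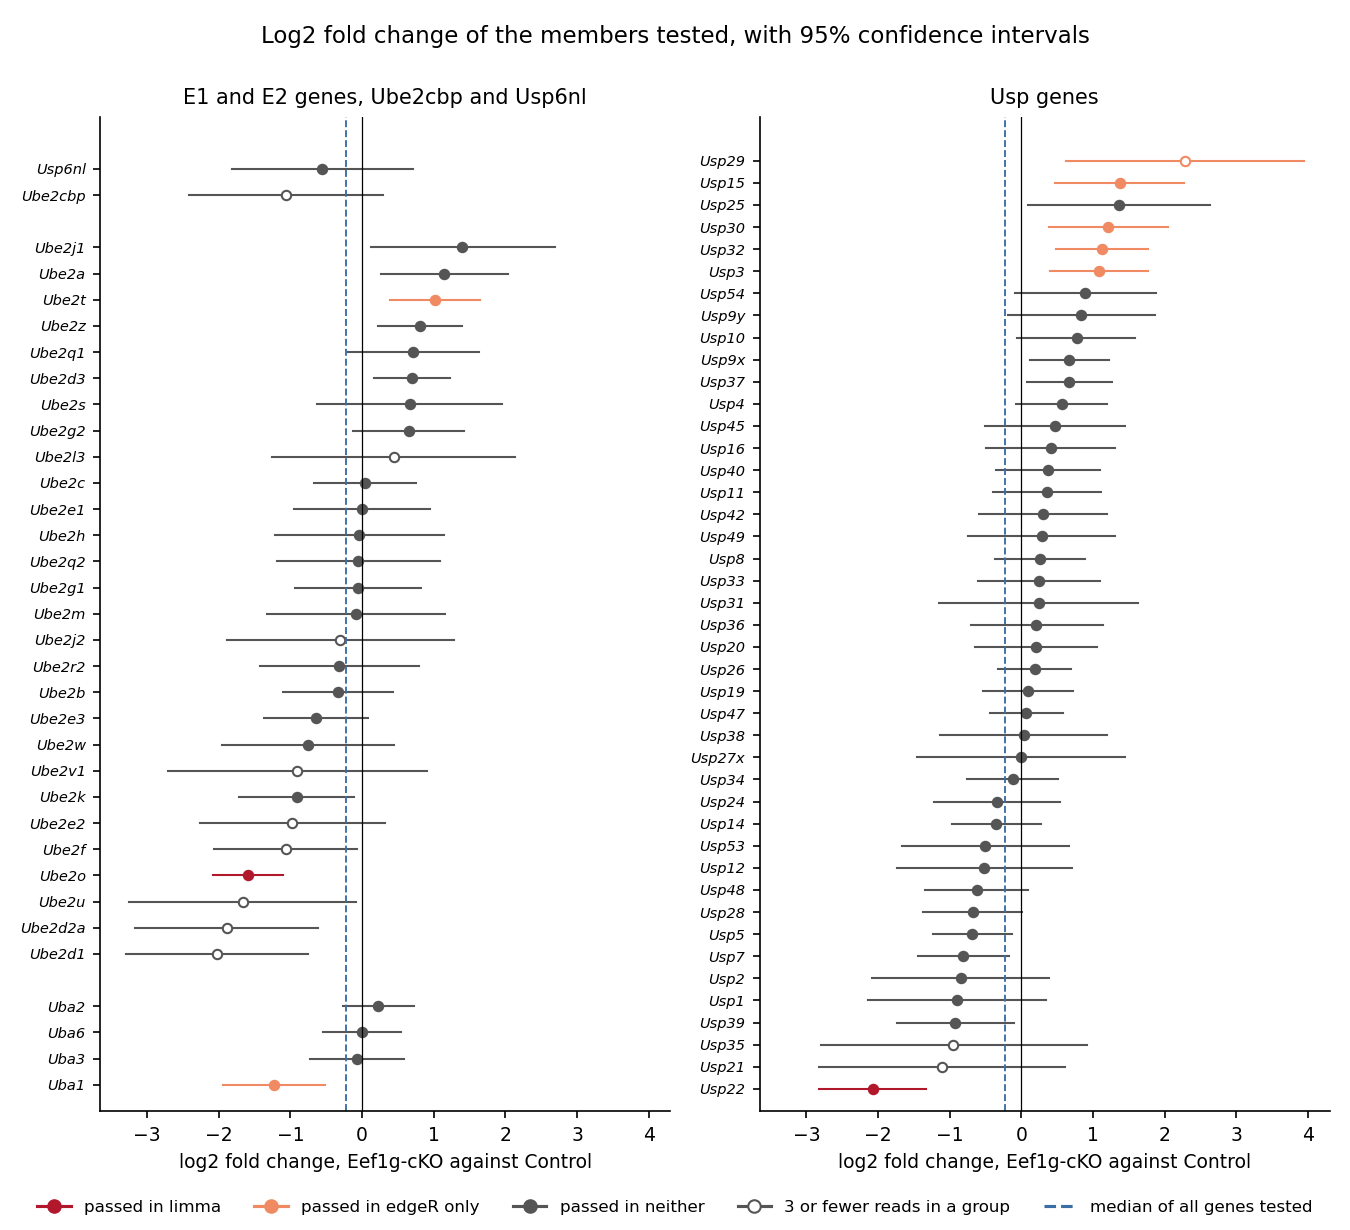
Log2 fold change (Eef1g-cKO against Control, limma on log2(FPKM + 1)) of 77 of the members tested, points with 95% confidence intervals as lines, 2 libraries a group; open points have 3 or fewer reads in a group, so their fitted value rests on the added 1 FPKM. The 2 red genes, *Ube2o* and *Usp22*, lie left of the dashed all-gene median of -0.23, and the 7 orange genes passed in edgeR but not in limma.

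Mean summed footprints were somewhat higher in Eef1g-cKO for *Usp* genes and somewhat lower for E1 and E2 genes. For E1 and E2 genes *Uba1* and *Ube2o* carried the lower sums. Differences between classes were not tested. The 5 E1 genes took 1598 and 2038 reads per 1000000 in Control against 1469 and 1632 in Eef1g-cKO. For the 30 E2 genes the values were 1620 and 1914 in Control against 1581 and 1500 in Eef1g-cKO. The *Usp* genes took 5387 and 5495 in Control against 5904 and 6025 in Eef1g-cKO. Thus the E1 groups overlapped, both Eef1g-cKO libraries lay below both Control libraries for E2 genes, and both lay above for *Usp* genes, with Eef1g-cKO to Control ratios of 0.853, 0.872 and 1.10. *Ube2o* held 1517 of 4016 and 839 of 2650 E2 reads in Control, against 44 of 354 and 82 of 612 in Eef1g-cKO. *Uba1* held 1248 of 3962 and 1161 of 2821 E1 reads in Control, against 59 of 329 and 117 of 666 in Eef1g-cKO. Without *Ube2o* and *Uba1*, the mean sums of the other E2 and E1 genes were higher in Eef1g-cKO. For *Usp* genes the means, 5441 and 5965, differed by more than the SD within either group (76.1 and 85.2), while for E1 genes the means of 1818 and 1551 differed by less than the Control SD of 311, and for E2 genes those of 1767 and 1541 by slightly more than the Control SD of 208. Median log2 fold changes were 0.00 for E1, -0.09 for E2 and 0.21 for *Usp* genes, and with libraries centred 0.21, 0.13 and 0.43, so the sign of the E2 median depends on the scaling.

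**Figure D2:**
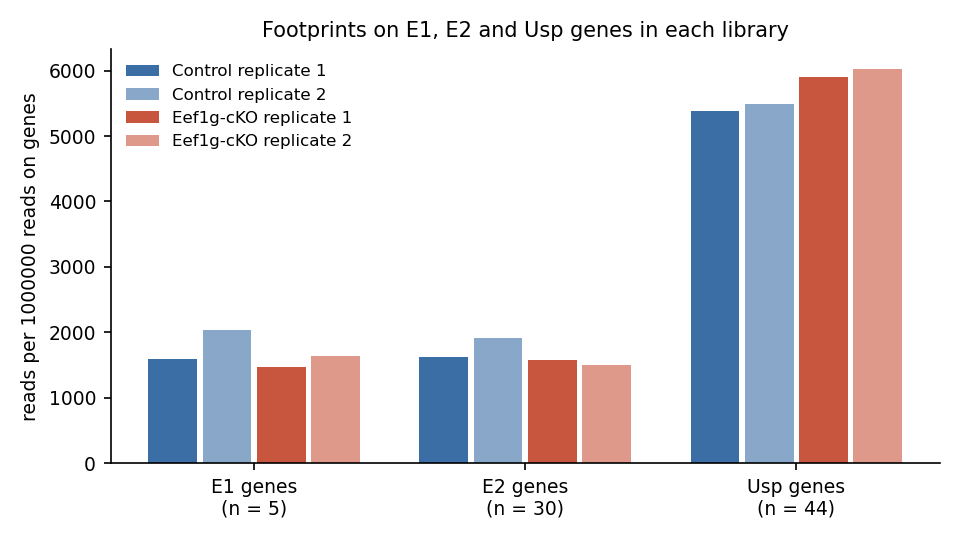
Bars give reads per 1000000 reads counted on genes (vertical axis) summed over the 5 E1, 30 E2 and 44 *Usp* genes in each of the 4 libraries. The *Usp* bars stand at 5387 and 5495 in Control and at 5904 and 6025 in Eef1g-cKO.

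The libraries also differ in markers of the cells they hold, and the part of this in any result on the members was not tested. Of the 15 markers of leptotene and zygotene spermatocytes, all 15 were in the table with reads, 4 rose (*Sycp3*, *Dmc1*, *Hormad1* and *Meiob*) and 1 fell (*Stra8*), and their summed FPKM was 2349 and 1977 in Control against 4558 and 4150 in Eef1g-cKO, with *Sycp3* the most abundant. Of 11 spermatogonial markers, 0 rose in limma (0 in edgeR, 0 at unadjusted p) and 7 fell, *Stra8* and *Uchl1* among them, and the summed FPKM was 1784 and 2047 against 412 and 364, with *Uchl1* the most abundant. Of 10 pachytene markers 5 were in the table, *Hist1h1t* rose and was the most abundant, and the sums were 588 and 450 against 1721 and 1666. Most of each sum was *Hist1h1t*. At unadjusted p 1 of the other 4 was decreased in limma, and 0 in edgeR. Of the 5, 3 had both Eef1g-cKO libraries above both Control libraries (24.6% of all genes) and 1 had both below (37.7%). The median log2 fold change of the 5 was 0.79. In whole sorted populations, fewer cells of a type and less of an mRNA or of its translation per cell cannot be told apart.

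Markers of cells outside these stages were low, except for those of Sertoli cells. Of 9 Sertoli markers 8 were in the table, 0 were called by limma (2 decreased at unadjusted p and 2 in edgeR), and their summed FPKM was 796 and 310 in Control against 421 and 343 in Eef1g-cKO. Most of it was *Ctsl*, which other cells also express, and *Clu*, looked at after its values were seen, which had 458 and 96.3 FPKM in Control against 91.4 and 65.1 in Eef1g-cKO (edgeR adjusted p = 0.00885, limma adjusted p = 0.223). The defining Sertoli genes *Sox9*, *Wt1* and *Gata4* had 47 and 18, 46 and 11, and 27 and 6 reads in Control against 2 and 2, 0 and 2, and 0 and 0 in Eef1g-cKO. For 6 of the 8 both Eef1g-cKO libraries were below both Control libraries, with a median log2 fold change of -1.35, or -0.44 with genes of 3 or fewer reads at their bound. For spermatids 3 of 8 markers were in the table, with sums of 7.38 and 55.3 against 0 and 15.1 FPKM, mostly *Tnp1*. *Prm2* was at 0 in both Eef1g-cKO libraries and in Control replicate 1. For Leydig cells 3 of 6 were in the table, with 3.10 and 5.82 against 2.23 and 1.22 FPKM. *Cyp11a1*, the most abundant, and *Hsd3b1* were at 0 in both Eef1g-cKO libraries, and *Cyp11a1* also in Control replicate 1. For peritubular cells 3 of 5 were present, with 43.8 and 39.4 against 27.7 and 20.8 FPKM, mostly *Acta2* and *Tagln*. Of 5 macrophage markers 0 were in the table. Of the spermatid, Leydig and peritubular markers 0 were called in either direction by limma, at adjusted or unadjusted p, or by edgeR.

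Among the E1 genes, *Uba1* and *Uba6* activate ubiquitin, *Uba2* is the catalytic subunit of the SUMO E1, and *Uba3* that of the NEDD8 E1. *Uba1*, on the X chromosome, had 109 and 182 FPKM in Control against 57.3 and 62.4 in Eef1g-cKO, from 1248, 1161, 59 and 117 reads. The 2 Eef1g-cKO libraries were lower than both Control libraries, and they lay closer to each other than the Control libraries did. The log2 fold change was -1.23 (SE 0.29, 95% confidence interval -1.94 to -0.51), or -0.99 relative to all genes. It did not pass in limma (adjusted p = 0.0576) and passed in edgeR (adjusted p = 0.00186). In limma it passed with a pseudocount of 5 FPKM (adjusted p = 0.0462) or a minimum mean of 5 FPKM (0.0447). It also passed there with the replicate number as a block (0.0278), but not with libraries centred (0.0774). Over the alternatives that kept all libraries the adjusted p ran from 0.00121 to 0.159. Without Control replicate 2 the log2 fold change was -0.86.

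*Uba2* had the highest FPKM of all 81 members in both groups, with 246 and 281 in Control against 294 and 323 in Eef1g-cKO. The Eef1g-cKO values were slightly higher, and the log2 fold change was 0.23 (SE 0.20, limma adjusted p = 0.475). *Uba6*, the second ubiquitin E1, had 61.4 and 64.2 FPKM against 56.2 and 69.9, and *Uba3* had 31.5 and 28.5 against 24.6 and 32.8. In both the Eef1g-cKO libraries lay on either side of the Control libraries, and the sign of their log2 fold changes (0.00 and -0.07) turned when libraries were centred.

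Mice also carry *Uba1y*, a copy of *Uba1* on the Y chromosome that is expressed in testis; its symbol is outside the rule and it was chosen after its values were seen. Over the aligned coding sequences the pair is 80.3% identical, and 5 of the 3145 stretches of 30 bases in *Uba1* have an exact copy elsewhere in the genome, against 1749 of 3145 (55.6%, 11 places) in *Uba1y*. How reads that fit several places were counted is not stated, so the level of *Uba1y* is given with that limit. The sequences around the codon of the active-site cysteine, which takes up ubiquitin, are shown to give the reader the scale of that difference, with the cysteine codon in capitals (residue 632 in *Uba1*, chrX:20676010-20676054, plus strand; residue 631 in *Uba1y*, chrY:829272-829316, plus strand; GRCm38). These 45 bases differ at 7 positions.
Uba1: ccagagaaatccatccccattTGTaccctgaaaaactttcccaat
Uba1y: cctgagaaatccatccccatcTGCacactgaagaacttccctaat

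*Uba1y* had 18.5 and 22.0 FPKM in Control against 33.7 and 35.7 in Eef1g-cKO. Both Eef1g-cKO libraries were higher, the opposite of *Uba1*. Its log2 fold change of 0.75 (SE 0.25) did not pass in limma (adjusted p = 0.113). The FPKM ratio of *Uba1* to *Uba1y* was 5.91 and 8.28 in Control against 1.70 and 1.75 in Eef1g-cKO. A ratio within a library does not depend on its scaling, and here it was lower in both Eef1g-cKO libraries than in both Control libraries, without a test since the pair was chosen for its values. The ratio carries the limit on the level of *Uba1y*.

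The SUMO E1 consists of *Uba2* and *Sae1*, and the balance of their footprints also differed. *Sae1* had 148 and 173 FPKM in Control against 64.5 and 73.6 in Eef1g-cKO. Both Eef1g-cKO values were less than those of either Control library, and *Sae1* fell by 1.21 on the log2 scale (SE 0.21, limma adjusted p = 0.0364). The change was 0.99 with libraries centred and 0.93 with a GC trend removed, just under the fold limit in both cases. The call also ended with a pseudocount of 0.1 FPKM, without Control replicate 1 (log2 fold change -1.32), without Control replicate 2 (-1.10) and without Eef1g-cKO replicate 1 (-1.11), and the adjusted p ran from 0.00154 to 0.219 over all alternatives. The FPKM ratio of *Uba2* to *Sae1* was 1.66 and 1.62 in Control against 4.55 and 4.39 in Eef1g-cKO, a pair set side by side after the values were seen.

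In the NEDD8 cascade, *Nae1*, the partner of *Uba3*, had 39.7 and 43.6 FPKM in Control against 93.9 and 71.9 in Eef1g-cKO. Here both Eef1g-cKO libraries were higher, with a log2 fold change of 0.97 (SE 0.24) that did not pass in limma (adjusted p = 0.0610) but passed in edgeR (1.05, adjusted p = 0.00877), in DESeq2 (1.04, adjusted p = 0.0418) and in limma with libraries centred (1.18, adjusted p = 0.0393). It was 0.59 with a GC trend removed, and the adjusted p ran from 0.00877 to 0.312 over the alternatives; *Nae1* was chosen after its values were seen. *Ube2m*, the main NEDD8 E2, had 97 and 60 reads in Control against 5 and 27 in Eef1g-cKO. Per length, its Eef1g-cKO libraries lay on both sides of Control, at 14.3 and 42.2 FPKM. The second NEDD8 E2, *Ube2f*, had 29 and 15 reads in Control against 1 and 2 in Eef1g-cKO, a ratio of 0.417 in reads per 1000000 with an exact counting interval of 0.0828 to 1.30.

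**Figure D3:**
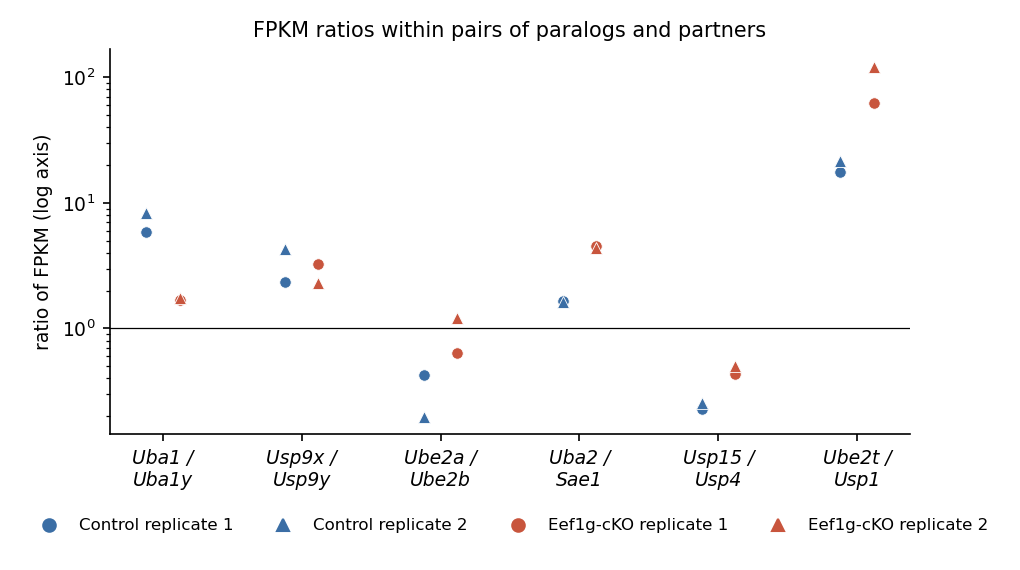
Ratio of the FPKM of the upper gene to that of the lower gene (vertical log axis) in each library, for 6 pairs of paralogs or partners; the line marks a ratio of 1. *Uba1* to *Uba1y* stands at 5.91 and 8.28 in Control against 1.70 and 1.75 in Eef1g-cKO, and *Uba2* to *Sae1* at 1.66 and 1.62 against 4.55 and 4.39.

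*Ube2o* was the E2 gene that passed the test. It encodes a large enzyme that unites E2 and E3 functions and removes ribosomal and other unassembled proteins during red cell maturation. Its FPKM was 118 and 117 in Control against 37.8 and 38.7 in Eef1g-cKO, from 1517, 839, 44 and 82 reads. The libraries of each group lay close together (SD 0.780 and 0.610 FPKM, n = 2 each), and the groups were far apart. *Ube2o* fell by 1.59 on the log2 scale (SE 0.20, 95% confidence interval -2.08 to -1.10, limma adjusted p = 0.0271), and its mean was 3.06-fold higher in Control. Relative to all genes the log2 fold change was -1.36. Its coding sequence has 73.1% G or C at the last codon position, against a median of 60.2% over all genes, and with a GC trend removed from each library the log2 fold change was -1.01. The call ended without Control replicate 1 (log2 fold change -1.58) and without Control replicate 2 (-1.60), where the fit has a lone Control library, with the estimate nearly as before; the adjusted p ran from 1.42e-06 to 0.107 over the alternatives.

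The highest E2 gene by FPKM was *Ube2t*, which with the ligase *Fancl* attaches ubiquitin to FANCD2 in the repair of DNA crosslinks. It had 115 and 161 FPKM in Control against 311 and 247 in Eef1g-cKO. Both Eef1g-cKO libraries were above both Control libraries, and the gene stood second of all members in Eef1g-cKO. The log2 fold change of 1.02 (SE 0.25, 95% confidence interval 0.39 to 1.65), or 1.25 relative to all genes, did not pass in limma (adjusted p = 0.0629). It passed in edgeR (adjusted p = 0.00267) and with libraries centred, and over the alternatives the adjusted p ran from 0.00266 to 0.285. *Usp1*, the protease that takes ubiquitin off FANCD2, had 6.51 and 7.43 FPKM in Control against 4.97 and 2.05 in Eef1g-cKO, the latter from 4 and 3 reads, with a log2 fold change of -0.90 (SE 0.50, limma adjusted p = 0.275). For *Usp1*, 52.1% of the 30-base stretches of the coding sequence have a copy elsewhere, so reads that map to several places may be missing from it or added to it.

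*Ube2a* and *Ube2b* encode the mammalian Rad6 proteins, which put ubiquitin on histone H2B and PCNA, and *Ube2b* is needed for normal sperm formation in mice. *Ube2a*, on the X chromosome, had 11.4 and 6.97 FPKM in Control against 18.8 and 23.6 in Eef1g-cKO, from 47, 16, 7 and 16 reads. The 2 Eef1g-cKO libraries were higher; the log2 fold change was 1.15 (SE 0.36) and did not pass in limma (adjusted p = 0.0996). *Ube2b*, on chromosome 11, had 26.8 and 35.0 FPKM against 29.4 and 19.6, and its groups overlapped (log2 fold change -0.34, SE 0.31, limma adjusted p = 0.495). The ratio of *Ube2a* to *Ube2b* was 0.427 and 0.199 in Control against 0.640 and 1.21 in Eef1g-cKO. To show how far the pair can be told apart by footprints, the bases around the active-site cysteine 88 are printed with its codon in capitals. They differ at 9 of 45 positions, and the aligned coding sequences are 77.6% identical. In *Ube2a* (plus strand) the window joins chrX:36881746-36881746 to chrX:36882599-36882642 across an intron, and in *Ube2b* (minus strand) it joins chr11:51991394-51991394 to chr11:51988657-51988700, all on GRCm38.
Ube2a: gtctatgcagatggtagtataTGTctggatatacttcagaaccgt
Ube2b: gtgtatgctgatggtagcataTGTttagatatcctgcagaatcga

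Comparisons within the *Ube2d* family, general-purpose E2 enzymes that work with many ligases, were limited by depth. *Ube2d3* had 40.2 and 41.9 FPKM in Control against 63.1 and 72.1 in Eef1g-cKO. Both Eef1g-cKO libraries were higher, and the log2 fold change of 0.70 (SE 0.22) did not pass in limma (adjusted p = 0.0946). *Ube2d1* had 13 and 5 reads in Control and *Ube2d2a* 14 and 11, and both had 0 reads in the 2 Eef1g-cKO libraries. At that depth 3 reads per library would on average amount to more FPKM than either gene had in Control. For *Ube2d1* 3 reads amount to 9.36 and 5.14 FPKM in the Eef1g-cKO libraries, against 3.66 and 2.52 FPKM in Control. No fold is therefore given, no counting interval was computed, and a difference is neither shown nor excluded. Both are among the 7 members decreased at unadjusted p, where the fitted value rests on the added 1 FPKM. *Ube2d1* and *Ube2d2a* were chosen after their values were seen. A comparison of *Ube2d1* with *Ube2d3* at the active-site codon (residue 85, chr10:71258229-71258273 on the minus strand and chr3:135460008-135460052 on the plus strand, GRCm38) shows 10 differences in 45 bases, with the codon in capitals.
Ube2d1: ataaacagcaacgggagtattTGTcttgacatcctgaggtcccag
Ube2d3: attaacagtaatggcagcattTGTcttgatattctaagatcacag

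Of other E2 genes chosen by role, *Ube2c* and *Ube2s* work with the anaphase-promoting complex, and *Ube2j1* and *Ube2g2* serve degradation at the endoplasmic reticulum (ER). *Ube2c* had 46.8 and 71.4 FPKM against 67.2 and 52.7, and *Ube2s* had 6.94 and 21.2 against 18.1 and 22.3. In both the groups overlapped, and the sign of the log2 fold change (0.04 and 0.67) turned without Control replicate 1, to -0.26 and -0.07. *Ube2j1* had 3.09 and 1.85 FPKM in Control against 11.4 and 5.57 in Eef1g-cKO, from 27, 9, 9 and 8 reads. Here both Eef1g-cKO libraries were higher, and the log2 fold change of 1.40 (SE 0.52, limma adjusted p = 0.138), the highest of any member with a mean of at least 5 FPKM, did not pass; it reached that mean through Eef1g-cKO (2.47 FPKM in Control against 8.49). *Ube2g2* had 26.2 and 21.1 FPKM against 47.3 and 29.7, again higher in both Eef1g-cKO libraries without passing (log2 fold change 0.65, SE 0.32, limma adjusted p = 0.224). *Ube2n*, the E2 of lysine-63 chains, had 5, 4, 0 and 4 reads, and its partner *Ube2v2* was not in the table.

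Several E2 genes have many processed copies in the mouse genome, and their FPKM were low. For each member, every stretch of 30 bases of the longest coding sequence was searched for an exact copy elsewhere in the genome. At least 50% of the stretches had one in 12 of the 30 E2 genes, whose median Control mean was 3.18 FPKM, and in the other 18 the median was 17.2 FPKM. For *Ube2n*, *Ube2l3* and *Ube2d2a*, for example, 100% of the stretches were copied, and their Control means were 0.637, 0.927 and 2.74 FPKM. *Ube2d3* is an exception, with 74.7% copied, 36 other places and a mean of 41.1 FPKM in Control. Median log2 fold changes were -0.05 and -0.20 in the 12 and the 18 genes. The split at 50% was chosen after the values were seen, and how reads that fit several places were counted is not stated in the series, so the levels of these genes are given with that limit. Of the 44 *Usp* genes only *Usp1* reached 50%.

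**Figure D4:**
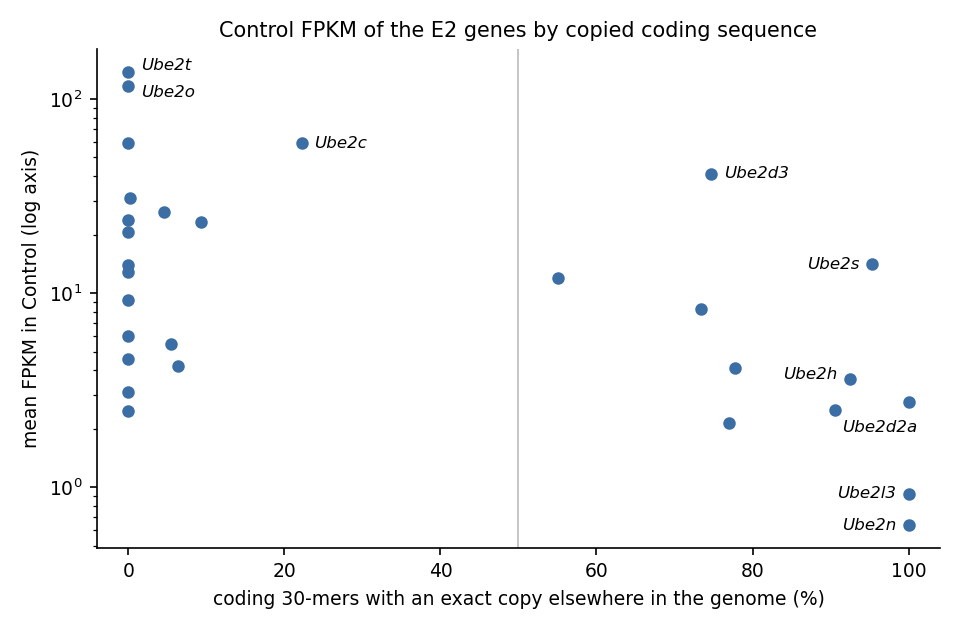
Each point is one of 29 E2 genes, with the percentage of its coding 30-mers that have an exact copy elsewhere in the genome (horizontal axis) and its mean FPKM in the 2 Control libraries (vertical log axis); the line stands at 50%. The 3 genes drawn at 100% have Control means from 0.637 to 2.74 FPKM, and *Ube2d3* stands above the other genes right of the line at 41.1 FPKM.

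Among the *Usp* genes, *Usp22* was the one that passed in limma. It is the ubiquitin protease of the SAGA coactivator and takes ubiquitin off histones H2A and H2B. Its FPKM was 42.8 and 54.8 in Control against 9.05 and 12.7 in Eef1g-cKO, from 471, 337, 9 and 23 reads. Every Eef1g-cKO value was far less than every Control value. *Usp22* fell by 2.07 on the log2 scale (SE 0.30, 95% confidence interval -2.82 to -1.33, limma adjusted p = 0.0307), and its mean was 4.49-fold higher in Control. Relative to all genes the log2 fold change was -1.84. The call ended without Control replicate 1 (log2 fold change -2.25), without Control replicate 2 (-1.90) and with a pseudocount of 0.1 FPKM (-2.16), and the adjusted p ran from 3.17e-05 to 0.274 over the alternatives.

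The partners of *Usp22* in the SAGA module, which it needs for activity, were looked at after its values were seen. *Atxn7l3* had 3.26 and 4.68 FPKM in Control against 6.02 and 1.98 in Eef1g-cKO, and *Atxn7* had 4.89 and 1.58 against 3.91 and 3.58. Their groups overlapped. *Eny2*, which SAGA shares with the TREX-2 mRNA export complex, had 96.8 and 77.0 FPKM in Control against 416 and 403 in Eef1g-cKO. Both Eef1g-cKO libraries were far higher, and *Eny2* rose by 2.23 on the log2 scale (SE 0.21, limma adjusted p = 0.0212). Without Control replicate 1 or 2 the log2 fold change was 2.39 or 2.07 and did not pass, and the adjusted p ran from 3.56e-17 to 0.107 over the alternatives. *Usp27x*, an X-linked relative of *Usp22* that can work with the same partners, had 1.99 and 6.02 FPKM against 2.76 and 4.54, so its groups overlapped. The bases around the active-site cysteine of both are shown because the genes can share a module. Of 45 positions 8 differ. The aligned coding sequences, of 1575 and 1314 bases, are 61.7% identical with gap columns counted as differences. The windows lie at residue 185 of *Usp22* (chr11:61162941-61162985) and residue 87 of *Usp27x* (chrX:7374580-7374624). Both are on the minus strand of GRCm38, with the cysteine codon in capitals.
Usp22: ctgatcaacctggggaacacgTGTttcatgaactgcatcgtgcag
Usp27x: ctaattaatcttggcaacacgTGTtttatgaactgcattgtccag

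For 15 *Usp* genes both Eef1g-cKO libraries were above both Control libraries (24.6% of all genes), and for 11 both were below (37.7% of all genes). In edgeR 5 *Usp* genes were increased (8.75% of all genes), and in limma 0. *Usp32*, a membrane-bound protease, had 17.5 and 14.9 FPKM in Control against 38.7 and 34.3 in Eef1g-cKO. *Usp3*, which takes ubiquitin off histone H2A, had 14.7 and 18.1 against 32.0 and 40.0. In both the Eef1g-cKO libraries were about 2 times the Control libraries, with ratios of 2.25 and 2.19. Log2 fold changes were 1.12 for *Usp32* (SE 0.26, limma adjusted p = 0.0554, edgeR adjusted p = 0.00109) and 1.08 for *Usp3* (SE 0.28, limma adjusted p = 0.0653, edgeR adjusted p = 0.00170). Over the alternatives the adjusted p ran from 8.57e-04 to 0.274 for *Usp32* and from 0.00148 to 0.285 for *Usp3*. Both passed in limma with libraries centred or with a minimum mean of 5 FPKM.

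*Usp15*, which acts on TGF-beta signalling among other targets, had 5.17 and 5.07 FPKM in Control against 12.8 and 17.2 in Eef1g-cKO, from 148, 81, 33 and 81 reads. Its Eef1g-cKO values were clear of Control, with a log2 fold change of 1.37 (SE 0.36, limma adjusted p = 0.0712, edgeR adjusted p = 2.89e-04, from 1.44e-04 to 0.342 over the alternatives). *Usp30*, a protease of the outer mitochondrial membrane that opposes mitophagy, had 6.94 and 5.96 FPKM against 17.6 and 14.9. Its log2 fold change was 1.21 (SE 0.34, limma adjusted p = 0.0782, edgeR adjusted p = 0.0425, from 0.0351 to 0.336 over the alternatives), and it did not pass in DESeq2. *Usp29* had 1 and 0 reads in Control against 13 and 6 in Eef1g-cKO, a ratio of 116 in reads per 1000000 with an exact counting interval of 18.5 to 4827. *Usp25* had 0.457 and 0.982 FPKM against 4.05 and 2.78, from 5, 6, 4 and 5 reads, and did not pass after adjustment in limma or edgeR; it was chosen after its values were seen.

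*Usp15* and *Usp4* are paralogs with overlapping functions, and their windows at the catalytic cysteine are shown with its codon in capitals (residue 298 of *Usp15*, chr10:123146794-123146838, minus strand; residue 311 of *Usp4*, chr9:108366834-108366878, plus strand; GRCm38). They differ at 13 of 45 positions, and the aligned coding sequences are 61.6% identical.
Usp15: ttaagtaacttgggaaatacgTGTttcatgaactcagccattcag
Usp4: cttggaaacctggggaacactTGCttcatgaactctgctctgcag
*Usp4* had 22.4 and 19.7 FPKM in Control against 29.2 and 34.1 in Eef1g-cKO. The ratio of *Usp15* to *Usp4* was 0.230 and 0.257 in Control against 0.437 and 0.504 in Eef1g-cKO, so *Usp15* held a larger part of the pair in both Eef1g-cKO libraries; the pair was chosen after the values were seen.

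**Figure D5:**
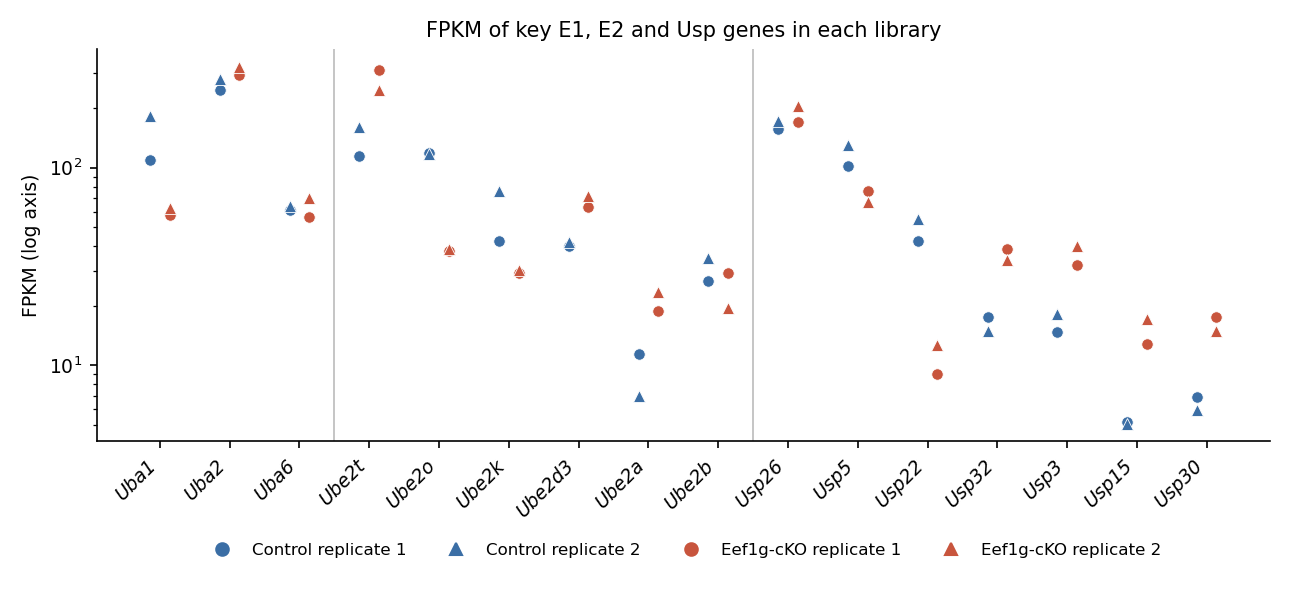
FPKM (vertical log axis) of 16 E1, E2 and *Usp* genes in each library, circles for replicate 1 and triangles for replicate 2, Control in blue and Eef1g-cKO in red; grey lines part the 3 classes. *Usp22* stands at 42.8 and 54.8 FPKM in Control against 9.05 and 12.7 in Eef1g-cKO, and *Usp32* at 17.5 and 14.9 against 38.7 and 34.3.

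The *Usp* gene with the highest FPKM was *Usp26*, an X-linked gene expressed mainly in testis. It had 157 and 173 FPKM in Control against 171 and 206 in Eef1g-cKO, with 1607, 989, 158 and 347 reads. The groups overlapped, and the log2 fold change of 0.19 (SE 0.21, limma adjusted p = 0.571) became -0.19 with a GC trend removed. Next by Control FPKM were *Usp5*, which recycles free ubiquitin chains, *Usp19*, with forms anchored in the ER membrane, and *Usp47*, a DNA repair and signalling protease. *Usp5* had 102 and 131 FPKM against 75.9 and 67.1, lower in both Eef1g-cKO libraries (log2 fold change -0.69, SE 0.22, limma adjusted p = 0.107). *Usp19* had 76.1 and 114 against 98.4 and 101, and *Usp47* 96.4 and 86.4 against 89.3 and 103. In these last genes the groups overlapped. *Usp5* and *Usp47* were chosen after their values were seen.

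Other *Usp* genes named by the rule did not pass. *Usp7*, which stabilises p53 and its ligase MDM2, had 42.1 and 41.5 FPKM in Control against 27.2 and 20.3 in Eef1g-cKO (log2 fold change -0.81, SE 0.26, limma adjusted p = 0.104). *Usp14*, a protease of the proteasome, had 56.3 and 42.1 against 40.6 and 35.7 (log2 fold change -0.35, SE 0.25, limma adjusted p = 0.386). Both were lower in both Eef1g-cKO libraries. *Usp39*, a splicing factor without protease activity that was named for its low log2 fold change, had 49.9 and 71.4 FPKM against 39.9 and 24.1 (log2 fold change -0.92, SE 0.33, limma adjusted p = 0.131), and it was also lower in both.

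*Usp9x* and its Y-linked copy *Usp9y*, set beside it after the values were seen, had higher values in Eef1g-cKO, unlike the *Uba1* pair. *Usp9x* had 34.1 and 30.3 FPKM in Control against 53.7 and 49.8 in Eef1g-cKO, and *Usp9y* had 14.5 and 7.05 against 16.6 and 21.5. Both Eef1g-cKO libraries were higher for each gene, with a log2 fold change of 0.67 for *Usp9x* (SE 0.22, limma adjusted p = 0.113). The ratio of *Usp9x* to *Usp9y* was 2.36 and 4.30 in Control against 3.24 and 2.32 in Eef1g-cKO, and these overlap. The 6 members on the X chromosome (*Uba1*, *Usp9x*, *Ube2a*, *Usp26*, *Usp11* and *Usp27x*) had a median log2 fold change of 0.27, beside 0.05 for the 404 X-linked genes tested. For the 72 autosomal members tested the median was -0.02, beside -0.24 for the 10027 autosomal genes tested, so members stood above genes there too. The grouping by chromosome was chosen after the values were seen.

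FPKM divide by the length of the whole gene, while footprints lie mostly in the coding sequence, so genes with long untranslated regions rank lower by FPKM than per coding base. Per kilobase of coding sequence, Control reads per 1000000 were 482 for *Ube2k*, an E2 that builds lysine-48 chains (chosen after its values were seen), which made it the first of all members, where it was number 11 by FPKM. *Uba2* came second with 348 followed by *Usp26* with 272. *Ube2d3* moved from rank 16 by FPKM to rank 5. The table does not hold the position of reads within a gene. By reads, the 5 leading members *Usp26*, *Uba2*, *Uba1*, *Ube2o* and *Usp47* took 34.5% of all Control reads on the 81 genes, and the 5 leading E2 genes took 70.3% of reads on E2 genes.

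Sequence features of the coding regions, which the choice of genes did not use, were compared with the log2 fold changes across genes; genes are not independent replicates, and share libraries and depth. Over 10113 genes the rank correlation of log2 fold change with GC at the last codon position was -0.301, so GC-rich genes tended to have lower values in Eef1g-cKO. Over the 79 members it was -0.076. Correlations with coding length were 0.183 over the members and 0.081 over all genes. The members tend to be longer and poorer in GC than other genes, with median coding lengths of 1857 and 1425 bases and median GC at the last codon position of 50.6% and 60.2%. These descriptions were chosen after the values were seen.

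The rest of the pathway was followed in 7 lists. Of the 4 genes that encode ubiquitin itself, 0 passed in limma or edgeR, and their median log2 fold change was -0.86, or -0.29 with genes of 3 or fewer reads at their bound. That median rests on single libraries: dropping Eef1g-cKO replicate 2 turned it to 0.02, and dropping the other Eef1g-cKO library took it to -1.41. *Ubb*, the most abundant, had 126 and 130 FPKM in Control against 146 and 200 in Eef1g-cKO. Of 10 genes of ubiquitin-like modifiers 8 were in the table and 0 passed in limma or edgeR (median -0.23); *Nedd8*, the most abundant, had 310 and 422 FPKM against 349 and 415. So these precursors held similar summed levels, 259 and 292 against 254 and 278 FPKM for ubiquitin and 452 and 596 against 508 and 538 for the modifiers. At unadjusted p in limma both lists also held 0 genes past the fold limit. Of the 15 conjugation enzymes of ubiquitin-like modifiers outside the symbol rule, 13 were tested, 1 fell, the *Sae1* described with *Uba2*, and 0 rose in limma (1 at unadjusted p, 2 in edgeR), with a median of -0.16 that ran from -0.22 to 0.19 over the alternatives.

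Another list holds the deubiquitinases of other families. Of 34 in the table (42 names, some of them older symbols of the same gene), 31 were tested, 2 rose and 1 fell (2.87% and 4.97% of all genes did), with a median of 0.06. *Uchl1*, in Control the most abundant deubiquitinase of any family here and a spermatogonial marker in its own right, had 1011 and 1138 FPKM in Control against 140 and 120 in Eef1g-cKO. Each Eef1g-cKO library was far lower, and it fell by 3.04 on the log2 scale (SE 0.21, limma adjusted p = 0.0212). *Uchl3*, its paralog, which also acts on NEDD8, had 30.4 and 43.5 FPKM against 134 and 92.2 and rose by 1.59 (SE 0.30, limma adjusted p = 0.0391). *Otud6a* had 105 and 70.3 against 251 and 239 and rose by 1.50 (SE 0.25, limma adjusted p = 0.0352). Without Control replicate 1 or 2 none of these 3 calls held, and those of *Uchl3* and *Otud6a* ended with a pseudocount of 0.1 FPKM as well; leaving out a Control library gave log2 fold changes of -3.13 and -2.95 for *Uchl1*, 1.34 and 1.84 for *Uchl3* and 1.78 and 1.21 for *Otud6a*.

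Proteases that act on ubiquitin-like modifiers had 15 of 16 genes in the table, with 1 increased, 1 decreased and a median of -0.20. *Senp2*, a SUMO protease, had 19.3 and 14.9 FPKM in Control against 40.1 and 42.4 in Eef1g-cKO and rose by 1.23 (SE 0.26, limma adjusted p = 0.0489); the call ended when any of the 4 libraries was left out, with log2 fold changes from 1.05 to 1.41, with a pseudocount of 0.1 FPKM and with low genes kept in. *Ufsp1*, a UFM1 protease, had 33 and 12 reads in Control and 0 in both Eef1g-cKO libraries, which at 3 reads per library makes it at least 1.06-fold lower. *Ufsp2*, the most abundant of this list over the 4 libraries together though not in Control, had 30.5 and 35.3 FPKM against 46.4 and 68.8.

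Of 26 ubiquitin and SUMO ligases with known roles in meiosis or DNA repair, 21 were tested, 1 rose and 1 fell, with a median of -0.16. *Fbxo47*, an F-box gene needed for meiotic prophase in mice, had 62.6 and 49.0 FPKM in Control against 223 and 206 in Eef1g-cKO and rose by 1.93 (SE 0.22, limma adjusted p = 0.0225). *Skp2*, the F-box protein that marks the CDK inhibitor p27 for degradation, had 51 and 24 reads in Control and 0 in both Eef1g-cKO libraries, at least 1.83-fold lower at 3 reads per library. *Skp1a*, the most abundant of this list, had 390 and 320 FPKM against 476 and 381. Of 39 ligases of the HECT and RBR families 33 were tested, 0 rose in limma (3 at unadjusted p, 3 in edgeR) and 1 fell (3 and 3), with a median of 0.19. *Nedd4*, which fell by 1.34 (SE 0.22, limma adjusted p = 0.0350), had 83.7 and 101 FPKM against 36.6 and 34.8, and *Huwe1*, the most abundant over the 4 libraries, had 80.7 and 95.5 against 96.8 and 101. Without Control replicate 1 or 2 the calls of *Fbxo47*, *Skp2*, *Ufsp1* and *Nedd4* ended, and with a pseudocount of 0.1 FPKM those of the last 3; for *Skp2* and *Ufsp1* DESeq2 gave no adjusted p. Log2 fold changes without a Control library were 2.11 and 1.76 for *Fbxo47*, and -1.48 and -1.21 for *Nedd4*.

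Depth set what could be seen for the weakest members. In both Eef1g-cKO libraries 13 members had 3 or fewer reads, and 43 members had at least 10 reads in every library. Members with 1 to 3 reads in the Eef1g-cKO libraries together had ratios whose counting intervals include 1. *Ube2u*, an example chosen after its values were seen, had 19 and 7 reads in Control against 0 and 1 in Eef1g-cKO, a ratio of 0.235 with an interval of 0.00574 to 1.43. *Ube2cbp*, 1 of the 2 genes outside the enzyme classes, had 15, 18, 1 and 1 reads, and *Usp6nl* had 28, 31, 2 and 4. These intervals and the floor of 3 reads cover counting error only, and not the spread between replicates. That spread went beyond counting error: the chi-square per degree of freedom between libraries of a group was 13.2 in Control and 1.96 in Eef1g-cKO. It grows with depth, so the 2 values do not compare the groups. Reads without molecular identifiers may also be copies of the same molecule.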

How the data were processed

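Ribo-seq was measured in 4 libraries, 2 Control and 2 Eef1g-cKO. The authors deposited FPKM, computed from reads, gene length and the reads counted in each library. The authors also deposited a signal, reads divided by a size factor per library, from which whole reads were recovered (100% of values whole within 0.01). Other deposited columns give the gene length in bases, and 6 columns with the authors' own mean and comparison were not used; they hold their mean level, fold change, its error, test score, p and adjusted p. The submitters name cutadapt, Bowtie, STAR, mm10 and hg38; the counter, the annotation and the handling of multiply mapped reads are not stated.

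limma 3.58.1 in R 4.3.3 (trended prior variance, not robust) was run on log2(FPKM + 1) in 10475 genes whose mean reached 1 FPKM, p-values adjusted by Benjamini-Hochberg over all of them; calls need an absolute log2 fold change above 1 and adjusted p under 0.05. edgeR 4.0.16 (filterByExpr, TMM, quasi-likelihood test, 8056 genes) and DESeq2 1.42.0 (independent filtering at 0.05, 6426 genes with an adjusted p) used the recovered reads. All tests are two-sided. The models were tested on simulated data. Alternatives were pseudocounts of 0.1 and 5 FPKM, no filter, a minimum mean of 5 FPKM, median centring, an untrended prior, the count models, edgeR without a filter, 1 seeded thinning to the smallest library, the replicate number as a block, each library left out and, chosen after seeing the data, a GC trend removed.

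The lists are 7 of the pathway (ubiquitin precursors; ubiquitin-like modifiers; conjugation enzymes of these modifiers; other deubiquitinases; proteases of ubiquitin-like modifiers; ligases with roles in meiosis or DNA repair; HECT and RBR ligases) and 8 of cell type markers. Members and lists were chosen with earlier results of these data known. Genes named are the members called, the 5 highest and 5 lowest log2 fold changes at a mean of at least 5 FPKM, the 5 highest in Control, genes chosen by role, and list genes called or most abundant. Other genes are named as chosen after their values were seen. Some genes that the rule takes in are not reported here.

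All 81 members were matched to GRCm38.p6. Coding sequences are the longest of GENCODE release M21, scanned against 22 chromosome sequences in Python 3.11.15 with numba 0.67.0 and biopython 1.88 (alignments); figures used matplotlib 3.10.9. Percent identity is over all alignment columns, with gap columns counted as differences. Intervals are 95% (exact Clopper-Pearson for read ratios), and the floor is 3 reads per library.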

Additional observations from a re-analysis of the deposited data

How the results depend on the processing

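The estimates held their direction more often than the calls. Of 42 named genes, 35 kept 1 direction under every alternative in which they were tested (up to 16); 534 of the 667 values kept direction and side of the threshold, 64 were no longer past it, 46 newly past it and 23 had the other sign. Members decreased in limma numbered 2; members increased, 0. The counts for all genes were 301 increased and 521 decreased.

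Pseudocount 0.1 gave 29 genes increased, 47 decreased and 1 member decreased. An untrended prior gave 0 genes and 0 members in either direction (increased and decreased), as did thinning (0 and 0), where the members' median was 0.12. Centring gave 521 genes increased and 383 decreased, 3 members increased and a median of 0.21. A minimum mean of 5 FPKM gave 2 members increased and a median of 0.22. edgeR gave 705 and 904 genes, 6 members increased and a median of 0.30; without a filter 689 and 876, 5 and 0.12. DESeq2 gave 505 genes increased and 459 decreased, and 5 members increased. The replicate number as a block gave 822 genes decreased; same-numbered libraries showed no pairing (r = -0.008 across genes), so nothing rests on it. With a GC trend removed, chosen after seeing the data, 560 genes were increased and 384 decreased, and 2 members increased. Under centring, DESeq2 and the GC removal the excess of decreased genes turned into an excess of increased genes. Leaving out 1 library gave 0 to 537 genes increased and 0 to 1432 decreased, 0 to 3 members increased and 0 to 4 decreased, and medians of -0.04 to 0.13; the lone library of a group is then assumed to vary like the other group, so calls gained there were not used. The cause of these differences was not tested.

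Signs turned for *Uba3* (0.14 centred, 0.04 edgeR with or without a filter, 0.02 DESeq2, 0.03 thinned), *Uba6* (0.21 centred, 0.10 edgeR with or without a filter, 0.08 DESeq2), *Ube2m* (0.13 centred, 0.30 edgeR with or without a filter, 0.25 DESeq2, 0.22 GC) and *Usp26* (-0.19 GC). Leaving out 1 library gave *Uba3* -0.28 to 0.13, *Uba6* -0.16 to 0.15, *Ube2m* -0.84 to 0.66, *Ube2c* -0.26 to 0.34, *Ube2s* -0.07 to 1.41 and *Usp19* -0.20 to 0.38. None of these genes was called in limma, edgeR or DESeq2. Of 112 values of list medians under the alternatives, 33 moved by more than the spread between libraries, and in 5 of the 7 lists the median took the other sign at least once.

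Depth limits the Eef1g-cKO libraries most: 13 members had 3 or fewer reads in both, and absence of a call there does not show equal levels.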
